A study of Saccharomyces cerevisiae with 18 samples.

Results

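The balance between the parental transcripts of a diploid hybrid of the budding yeast Saccharomyces cerevisiae was compared between 6 min after a shift to heat and the moment of the shift, 0 min. A transcript feature is a gene, or several overlapping genes that the authors consolidated, with at least one single-nucleotide variant (SNV) that tells the laboratory parent BY4716 (BY) from the vineyard parent RM11-1a (RM). Of 3974 features, 3004 were kept: those that averaged 20 or more allelic reads over the 6 libraries of these times and had 2 or more reads of each allele in them. The other 970 fell below, 6 of them by the allele minimum alone. The mean nearest to the minimum was 20 reads inside and 19.8 outside, with 58 features within 2 reads above it and 52 within 2 reads below. Of the kept features 2263 held 1 annotated gene, 737 held several and 4 matched none.

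Both groups were the same diploid, in which each parent had brought the rpb1-1 mutation, grown at 24 °C in rich glucose medium (YEPD) to mid-log phase. Hot medium then took the culture to 37 °C. The 6 min group was 3 libraries, 1 from each of 3 independent cultures, and the 0 min group was 3 libraries from aliquots of the same cultures taken right after the hot medium was added. All cells carried rpb1-1 and all received the hot medium, so effects of the heat and of the failing polymerase cannot be told apart. The study used the times to ask where the alleles of a gene are lost at different speeds.

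RPO21, also called RPB1, encodes the largest subunit of RNA polymerase II, and rpb1-1 makes it fail at high temperature, so that existing mRNA decays with little replacement. Yeast also answers a rise in temperature within minutes: the factor Hsf1 induces chaperone genes, Msn2 and Msn4 induce general stress genes, and mRNAs for building ribosomes decline. In a hybrid both alleles of a gene share 1 nucleus and its regulators, so regulators that differ between the parents reach both alleles alike.

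The 6 libraries held 689547 to 1180513 allelic reads each, 5695331 in all, and 49.40 to 49.55% of them were BY reads in every library. LYS2, which is deleted in BY4716, checked the parental labels: its BY reads were 0.539% ± 0.540 of allelic reads at 6 min and 0.609% ± 0.529 at 0 min (SD, n = 3 each). Counts per library were compared as log2 of the BY/RM ratio, 6 min minus 0 min, with the quasi-likelihood test of edgeR and Benjamini-Hochberg adjustment over all 3004 features. A negative change means relatively fewer BY reads at 6 min, and ± after a log2 change is its standard error (SE). The pool share, a second measure, is the reads of both alleles of a feature relative to all allelic reads of the library. It does not give molecules per cell: fewer cells with a transcript and less of it per cell cannot be told apart, nor can a transcript that stayed while others were lost and one made within these minutes.

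The BY/RM ratio changed for 20 features, 0.666% of those tested, 10 with more BY at 6 min (0.333%) and 10 with less (0.333%). At an unadjusted p under 0.05 there were 244 features (8.12%). Mean BY shares moved by 3.45 to 22.6 percentage points among the 10 with more BY, and fell by 3.51 to 27.1 points among the 10 with less. Across all features tested the median change was 0.01 and its median size 0.15, with quartiles of -0.14 and 0.16. The features called held more reads than most, a median of 387 per library against 137 over all features tested, and lay on 11 chromosomes. In 19 of the 20 the 3 libraries of 6 min did not overlap the 3 of 0 min, as in 13.5% of all features, and in all 20 the 3 cultures moved the same way, as in 28.7% of all features. These counts describe values that the test itself used.

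The number called depended on the test and on culture 2. Which of the 20 stayed called depended on cultures 1 and 3 too, as given with each feature. DESeq2 called 3, ENA1, EXG1 and the feature of INA1 and PUN1, all with less BY. A fit by limma to log2 ratios called 0, with 236 at an unadjusted p under 0.05. With the deepest SNV of each feature in place of the sum 2 were called. The sign was that of the sum in all 17 of the 20 that could be tested, but this SNV is part of the sum by which they were called. Without culture 2, 7 were called, none of them with more BY (196 at an unadjusted p under 0.05), and with culture as a replicate block 14 were called (0.466%), all among the 20. Single libraries mattered too: without the 0 min library of culture 2, 12 were called, and without the 6 min library of culture 2 or 3, 13 or 11. Such counts can hold features outside the 20. Without the 6 min library of culture 1, the calls of ALD6, CWP1, DBP2, HAP1, OLE1, SIW14/HHT2, THI7 and YJR056C were lost. Leaving out any 1 library or culture did not end the calls of ENA1, RTA1, SFA1, NOP53, EXG1 and INA1/PUN1/YLR415C.

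**Figure D1:**
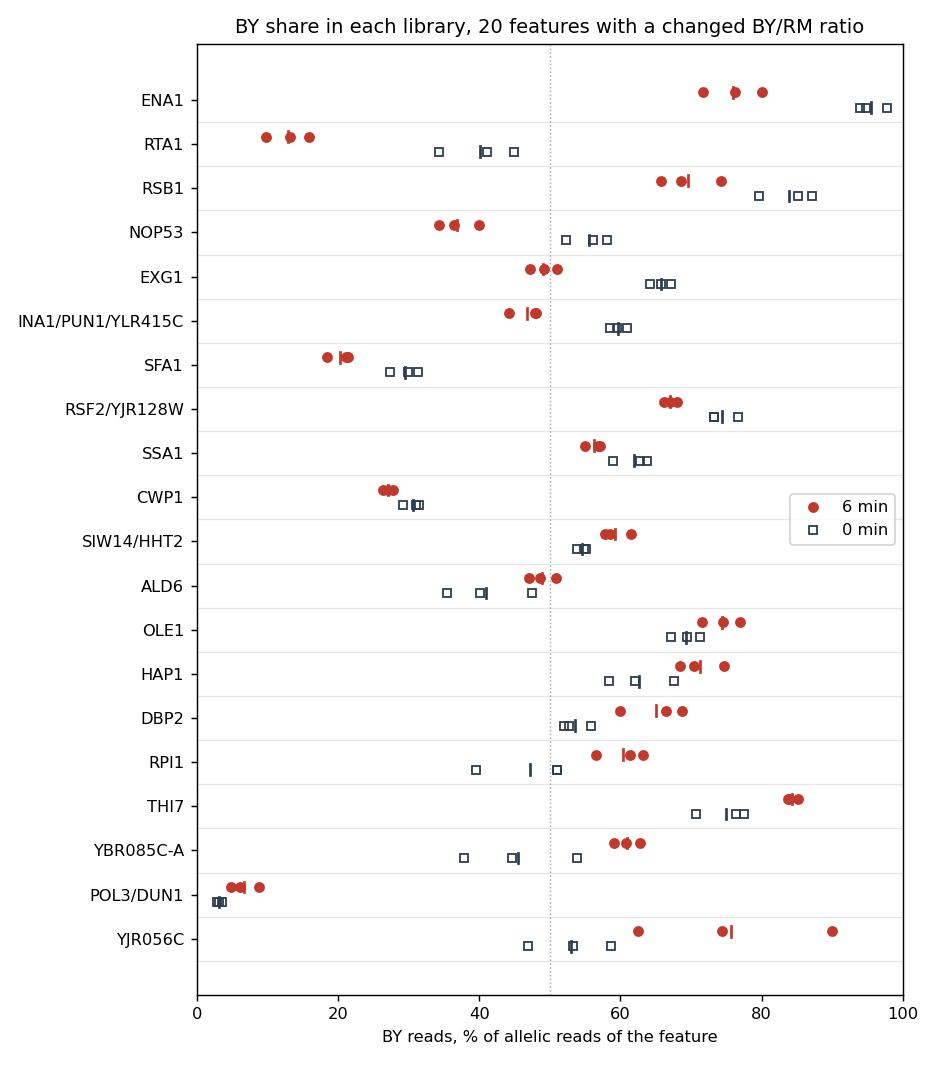
BY reads as % of the allelic reads of a feature, for the 20 features called (rows, ordered by the change of log2(BY/RM)), with 1 point per library and a short bar at the mean of 3. Filled circles are 6 min and open squares 0 min; only in ALD6 do the 2 sets of points overlap.

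Heat-response genes moved in the pool far more often than in their allele ratio. The pool share changed for 1131 features (37.6%), 551 higher (18.3%) and 580 lower (19.3%). Of 21 Hsf1 targets tested, 18 were higher in the pool and 0 lower, with a median log2 change of 1.5, while the ratio changed in 1, the Hsp70 gene SSA1. All 23 Msn2/4 targets tested were higher in the pool, with a median of 2.47, and the ratio changed in 0 of them (4 had an unadjusted p under 0.05). The lists held 39 Hsf1 and 45 Msn2/4 targets, and only those with a single-gene feature past the read filter were tested. That filter averaged both times, so a gene with few reads at 0 min could pass by its 6 min reads. The pool counts of these 2 lists therefore lean toward genes that rose, by an amount that was not tested. Of 69 ribosome biogenesis genes, 65 were lower in the pool, with a median of -1.31, and 2 changed in ratio, NOP53 with less BY and DBP2 with more. Over all features 0.666% changed in ratio. The median ratio change was -0.08 for Hsf1 targets, 0.05 for Msn2/4 targets and -0.01 for ribosome biogenesis, beside 0.01 for all features. In these medians shifts toward BY and toward RM cancel. The median size without sign was 0.10, 0.25 and 0.18 in the same order, beside 0.15 for all features. Unadjusted p of the edgeR ratio test was under 0.05 for 6 of the 21 Hsf1 targets and 11 of the 69 ribosome biogenesis genes, beside 8.12% of all features.

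Among the 20 features with a changed ratio, 8 were higher in the pool, 8 lower and 4 not called in either direction. Of the 10 with less BY at 6 min, 6 were higher in the pool and 3 lower; of the 10 with more BY, 2 were higher and 5 lower. Levels of each allele in the pool were then fitted one at a time. This fit was added after the data were seen, and it called 904 features for BY reads (30.1%) and 908 for RM reads (30.2%). The features follow by the roles of their genes.

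**Figure D2:**
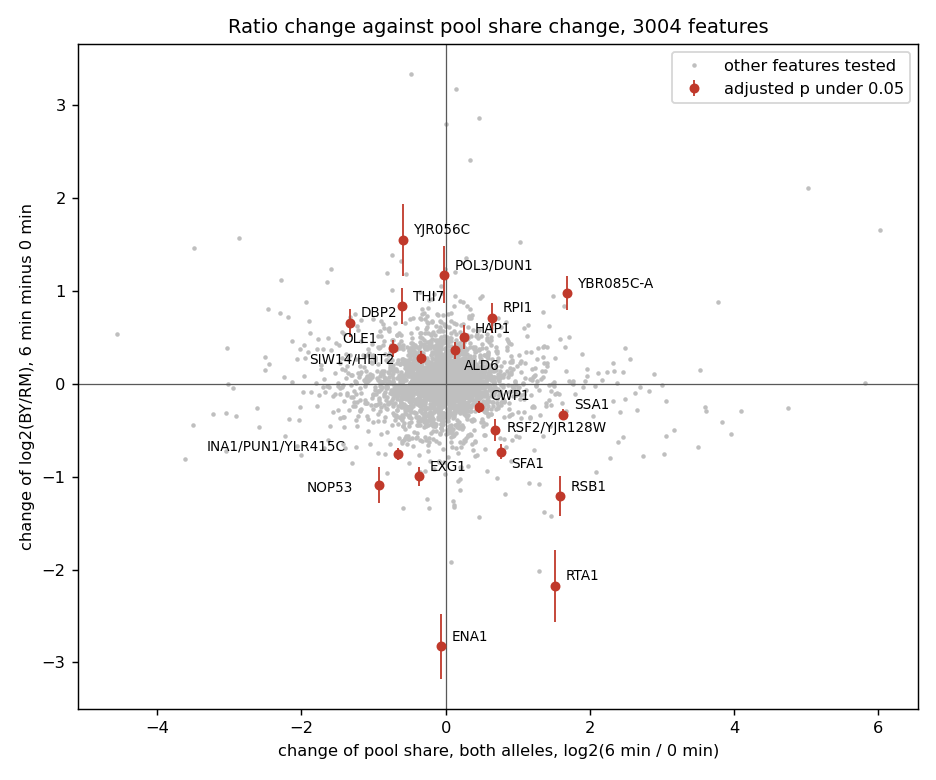
Change of log2(BY/RM) from 0 to 6 min (vertical) against the log2 change of the pool share of both alleles (horizontal), with 1 point per feature for 3004 features. Features with an adjusted p under 0.05 are red, with bars of 1 standard error; they lie on both sides of 0 on both axes, from ENA1 at -2.83 to YJR056C at 1.55 on the vertical one.

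The called features with genes of the cell wall and plasma membrane protein PUN1 shifted away from BY. EXG1 (YLR300W, chrXII:728955-730301, plus strand) encodes the main exo-1,3-beta-glucanase of the cell wall. BY reads made up 49.2, 47.1 and 51.0% of its allelic reads at 6 min in cultures 1, 2 and 3, against 64.2, 65.7 and 67.1% at 0 min. Every 6 min library lay below every 0 min library by a wide margin. The log2 ratio changed by -1.0 ± 0.11 (SE; adjusted p = 6.5e-10), and its 3 SNVs moved the same way. The BY level in the pool fell, with a log2 change of -0.79 ± 0.11 (adjusted p = 9.44e-05), and the RM level changed by 0.20 ± 0.12 (adjusted p = 0.258).

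A single feature on chromosome XII (chrXII:951156-954597) joins INA1 (YLR413W), PUN1 (YLR414C), YLR415C and YLR416C, whose reads cannot be told apart here. The SNVs of the joined feature come without positions, and the library kit does not mark strand. PUN1 encodes a membrane protein of the cell surface. The BY share was 44.3, 48.0 and 47.9% at 6 min and 61.0, 58.6 and 59.5% at 0 min, with no overlap and a lower value in each culture. It had the smallest adjusted p of all features tested, 4e-12, for a change of -0.76 ± 0.07 (SE), and all 10 SNVs with enough reads fell. BY reads fell in the pool, with a log2 change of -1.02 ± 0.09 (adjusted p = 1.42e-06), and RM reads changed by -0.26 ± 0.10 (adjusted p = 0.074).

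CWP1 (YKL096W, chrXI:261132-261851, plus strand), a mannoprotein anchored in the cell wall, had the smallest log2 change of the 20. Its BY share was 27.0, 26.4 and 27.7% at 6 min and 29.2, 31.0 and 31.5% at 0 min. The groups did not overlap but lay close, and the change was -0.25 ± 0.06 (SE; adjusted p = 0.0368). RM reads rose in the pool by 0.54 ± 0.13 (adjusted p = 0.00616); BY reads changed by 0.30 ± 0.12 (adjusted p = 0.0727). The adjusted p was 0.0629 with the culture as a block, and the call was lost without the 6 min library of culture 1, 2 or 3 or the 0 min library of culture 2 or 3 (adjusted p 0.0908 to 0.286), and without the whole of culture 2 or 3 (adjusted p 0.225 to 0.456). In the fit on all 18 libraries the adjusted p was 0.0587. Of 32 cell wall genes tested, CWP1 and EXG1 were lower in ratio and 0 were higher, beside 0.333% of all features in each direction, and the median was -0.03.

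Among genes for membrane pumps and carriers, ENA1, RTA1 and RSB1 shifted away from BY and THI7 toward it. ENA1 (YDR040C, chrIV:535192-538467, minus strand) encodes the plasma membrane pump that exports sodium. The BY share was 76.2, 71.8 and 80.0% at 6 min and 94.0, 94.8 and 97.8% at 0 min, which was the largest negative change of all features tested (-2.83 ± 0.35, SE; adjusted p = 4.09e-08). RM reads numbered 36, 24 and 27 at 6 min, against 6, 7 and 4 at 0 min, and BY reads 115, 61 and 108 at 6 min, against 94, 127 and 180 at 0 min. The RM level rose by 2.43 ± 0.34 on the log2 scale (adjusted p = 0.00016) while the BY level fell, with a change of -0.39 ± 0.14 (adjusted p = 0.0422). The pool share of both together changed by -0.07 ± 0.12 (adjusted p = 0.682). ENA2 and ENA5 are near-identical copies in the reference annotation, so how reads were split among them is uncertain. The BY share was lower at 3 of 5 SNVs with enough reads.

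RTA1 (YGR213C, chrVII:918512-919465, minus strand) and RSB1 (YOR049C, chrXV:422668-423732, minus strand) belong to one family of membrane proteins, in which RSB1 is known for exporting sphingoid bases and RTA1 for resistance to 7-aminocholesterol. For RTA1 the BY share was 9.80, 13.2 and 15.9% at 6 min and 41.2, 34.3 and 44.9% at 0 min. Its RM reads numbered 92, 46 and 95 at 6 min, against 10, 23 and 27 at 0 min, and its BY reads 10, 7 and 18, against 7, 12 and 22. Relative to the library totals, RM reads were higher at 6 min in each culture and BY reads slightly lower in each. The ratio changed by -2.18 ± 0.39 (SE; adjusted p = 0.000339), with the RM level up by 2.05 ± 0.22 (adjusted p = 2.36e-05) and the BY level at -0.10 ± 0.37 (adjusted p = 0.861). Just 1 of its 8 SNVs had enough reads to be followed alone. RTA1 and YJR056C had a mean under 100 reads and were named after their values were seen.

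RSB1 rose with both alleles. Its BY share was 74.3, 65.8 and 68.6% at 6 min and 85.1, 87.1 and 79.6% at 0 min, again with no overlap. RM reads rose by 2.59 ± 0.30 (adjusted p = 3.72e-05) and BY reads by 1.31 ± 0.27 (adjusted p = 0.00217) on the log2 scale, and the ratio changed by -1.21 ± 0.22 (SE; adjusted p = 0.000339). The SNVs went the same way in 9 of 10 cases. The call was lost without the whole of culture 2 (adjusted p 0.0655).

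THI7 (YLR237W, chrXII:612367-614163, plus strand), the plasma membrane transporter of thiamine, moved the other way in both measures. BY reads were 85.2, 83.9 and 83.7% at 6 min and 77.5, 70.8 and 76.4% at 0 min. Both alleles fell in the pool, with log2 changes of -1.27 ± 0.19 for RM reads (adjusted p = 0.000282) and -0.43 ± 0.13 for BY reads (adjusted p = 0.0224), for a ratio change of 0.84 ± 0.19 (SE; adjusted p = 0.0165). The 6 min shares lay close to each other and above all 3 at 0 min. It was not called without the 6 min library of culture 1, 2 or 3 or the 0 min library of culture 2 (adjusted p 0.079 to 0.171), and without the whole of culture 2 (adjusted p 0.338). In the list of 52 membrane transporters tested, THI7 was higher and ENA1 and RSB1 were lower in ratio, beside 0.333% of all features in each direction, and the median was 0.07.

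Of the metabolic enzymes, SFA1 shifted away from BY and OLE1 and ALD6 toward it. SFA1 (YDL168W, chrIV:159604-160764, plus strand) encodes the glutathione-dependent formaldehyde dehydrogenase. Its BY share was 18.5, 21.1 and 21.5% at 6 min and 27.4, 31.3 and 29.9% at 0 min, lower in each culture and without overlap. The change was -0.73 ± 0.08 (SE; adjusted p = 1.25e-09), and 8 of 8 SNVs fell. RM reads rose by 0.94 ± 0.12 in the pool (adjusted p = 6.34e-05) and BY reads changed by 0.23 ± 0.10 (adjusted p = 0.111).

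OLE1 (YGL055W, chrVII:398628-400160, plus strand), the only fatty acid desaturase of this yeast, had BY shares of 76.9, 71.6 and 74.5% at 6 min and 71.3, 67.1 and 69.4% at 0 min. The lowest 6 min library stood just above the highest 0 min library. Its alleles fell together in the pool, with log2 changes of -1.0 ± 0.17 for RM reads (adjusted p = 0.000839) and -0.63 ± 0.11 for BY reads (adjusted p = 0.000529), and the ratio changed by 0.38 ± 0.09 (SE; adjusted p = 0.0178). Its 5 SNVs with enough reads moved together, although their BY shares at 0 min ran from 37.5 to 73.9%. The call was lost without the 6 min library of culture 1 or 3 or the 0 min library of culture 2 (adjusted p 0.182 to 0.257), and whichever culture was left out (adjusted p 0.0623 to 0.0936).

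ALD6 (YPL061W, chrXVI:432588-434090, plus strand), the main cytosolic acetaldehyde dehydrogenase, had BY shares of 50.9, 47.0 and 48.7% at 6 min and 35.4, 40.1 and 47.4% at 0 min. This was the single call in which the groups overlapped. Within cultures 1, 2 and 3 the log2 ratio changed by 0.92, 0.41 and 0.07, so culture 3 hardly moved. Adjusted p was 0.0342 for a change of 0.36 ± 0.09 (SE) and 0.0784 with the culture as a block, and the call was lost without the 6 min library of culture 1, 2 or 3 or the 0 min library of culture 1 or 2 (adjusted p 0.0724 to 0.458), and without the whole of culture 1 or 2 (adjusted p 0.338 to 0.355). The change was 0.22 without culture 1, 0.62 without culture 3 and 0.61 without the 0 min library of culture 3. The pool share changed by 0.13 ± 0.20 (adjusted p = 0.64).

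SSA1 (YAL005C, chrI:139503-141431, minus strand, in one feature with the overlapping reading frame YAL004W), a cytosolic Hsp70 chaperone and Hsf1 target, was the deepest read of the 20 and rose with both alleles. Counts per 1000000 allelic reads averaged 2297 ± 124 for BY and 1783 ± 52.3 for RM at 6 min, against 880 ± 238 for BY and 555 ± 211 for RM at 0 min (SD, n = 3 each). BY shares of 56.8, 57.1 and 55.0% at 6 min and 59.0, 62.8 and 63.8% at 0 min did not overlap. The RM level rose by 1.82 ± 0.21 on the log2 scale (adjusted p = 3.53e-05) and the BY level by 1.51 ± 0.16 (adjusted p = 8.6e-06), for a ratio change of -0.33 ± 0.06 (SE; adjusted p = 0.000339). SSA2 is a near-identical copy, so the split of reads between the genes is uncertain, and 2 of 3 SNVs fell. At 0 min the BY share ran from 41.5 to 98.8% between these SNVs, so the summed share joins sites that disagree. The call was lost without the whole of culture 3 (adjusted p 0.0785), and with all SNVs the change was -0.21 (adjusted p = 0.0202).

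Because Hsf1 and Msn2/4 targets rose in the pool, promoters of the reference were searched for the elements that these factors are known to bind, and matches of 4 called features that rose are shown. The search covered 500 bases before each start codon in the R64 build, which represents the BY side; RM sequence was not analysed here. A heat shock element was taken as GAA, TTC and GAA in this order, each 2 bases after the last, or its reverse complement (TTC, GAA and TTC); such matches can overlap. A stress response element was any AGGGG or its reverse complement CCCCT. The elements can overlap each other by an end base only. The first occurs in 89 of 6000 protein-coding genes (1.48%) and the second in 2044 (34.1%). Of the 8 called features that rose in the pool, 1 had a heat shock element and 6 had a stress response element, against 20 (4.59%) and 261 (59.9%) of the 436 single-gene features that rose in the pool; RSB1 and RPI1 had no match, and RSF2/YJR128W was counted by either of its genes. The windows below run along the coding strand of the gene, with the element in capitals; the SSA1 windows lie at chrI:141776-141802, chrI:141673-141699 and chrI:141576-141602 on the minus strand, and the others at chrIV:159148-159174 (plus), chrVII:919593-919619 (minus) and chrII:419511-419537 (minus).
SSA1 heat shock element, 364 bases before the start codon: gtaaactTTCCAGAACATTCtagaaag
SSA1 heat shock element, 261 bases before the start codon: cttctttTTCCAGAACGTTCcatcggc
SSA1 stress response element, 160 bases before the start codon: aaggttatataAGGGGtggattgatgt
SFA1 stress response element, 445 bases before the start codon: tacttcaagaaCCCCTtaggtgacaac
RTA1 stress response element, 143 bases before the start codon: tattcttgggaAGGGGcttatcatgca
YBR085C-A stress response element, 362 bases before the start codon: gtatgaacgatAGGGGtaagtctaaat
Not shown are an SSA1 heat shock element at 359 bases, which overlaps the first, an SSA1 stress response element at 211 bases and a YBR085C-A one at 45 bases. Also left out are stress response elements of CWP1 (466 bases), RSF2 (173 bases) and YJR128W (337 bases), and matches of called features that did not rise. These are matches of letters. Whether the RM allele differs at them was not tested.

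Genes of RNA metabolism and the ribosome split by direction. NOP53 (YPL146C, chrXVI:276162-277529, minus strand) encodes a factor for making the large ribosomal subunit, and DBP2 (YNL112W, chrXIV:413639-416281, plus strand) a DEAD-box RNA helicase. NOP53 had BY shares of 34.3, 40.0 and 36.4% at 6 min and 58.1, 52.4 and 56.1% at 0 min. BY reads fell in the pool, with a log2 change of -1.51 ± 0.16 (adjusted p = 8.43e-06), and RM reads changed by -0.43 ± 0.18 (adjusted p = 0.0905). Its ratio changed by -1.09 ± 0.19 (SE; adjusted p = 0.000339), with the BY share of each of its 4 SNVs lower at 6 min.

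For DBP2 the BY share was 68.7, 66.5 and 59.9% at 6 min, against 52.0, 55.9 and 52.7% at 0 min. Both alleles fell, with log2 changes of -1.73 ± 0.16 for RM reads (adjusted p = 7.35e-06) and -1.06 ± 0.14 for BY reads (adjusted p = 4.3e-05), and the pool share changed by -1.33 ± 0.13. The change of ratio was 0.66 ± 0.15 (SE; adjusted p = 0.0161). It was no longer called without the 6 min library of culture 1 or 2 (adjusted p 0.169 to 0.197), and without the whole of culture 1 or 2 (adjusted p 0.111 to 0.263).

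Transcription regulators were called in 2 of 50 tested, both with more BY, beside 0.333% of all features. HAP1 (YLR256W, chrXII:646415-650923, plus strand) is the heme-responsive activator of respiratory genes, and its coding sequence in S288C, the relative of BY, ends in a Ty1 insertion. BY shares were 70.4, 74.7 and 68.5% at 6 min and 58.4, 62.1 and 67.6% at 0 min, close to touching in culture 3. Within cultures 1, 2 and 3 the log2 ratio changed by 0.76, 0.85 and 0.06. The BY level rose by 0.44 ± 0.10 (adjusted p = 0.00329) and the RM level changed by -0.11 ± 0.17 (adjusted p = 0.662). The ratio change was 0.51 ± 0.13 (SE; adjusted p = 0.0388), 0.0735 with the culture as a block, and the call was lost without the 6 min library of culture 1, 2 or 3 or the 0 min library of culture 1 or 2 (adjusted p 0.0648 to 0.368), and without the whole of culture 1 or 2 (adjusted p 0.313 to 0.506). Without culture 3 the change was 0.77.

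RPI1 (YIL119C, chrIX:136654-137877, minus strand), a regulator linked to the Ras pathway, had BY shares of 56.5, 63.2 and 61.3% at 6 min and 51.1, 39.5 and 51.0% at 0 min. The share at 11 of 11 SNVs with enough reads moved toward BY. BY reads rose by 0.98 ± 0.20 in the pool (adjusted p = 0.00174) and RM reads changed by 0.26 ± 0.15 (adjusted p = 0.213). The ratio changed by 0.71 ± 0.16 (SE; adjusted p = 0.0161), and the call was lost without the 6 min library of culture 2 or 3 or the 0 min library of culture 2 (adjusted p 0.131 to 0.251), and without the whole of culture 2 (adjusted p 0.506), where the change was 0.46.

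RSF2 (YJR127C, chrX:658917-663280 with YJR128W on the other strand), a zinc-finger protein needed for respiratory growth, went the other way. BY shares were 67.0, 68.0 and 66.2% at 6 min and 76.6, 73.2 and 73.3% at 0 min, without overlap. RM reads rose by 1.05 ± 0.13 (adjusted p = 5.92e-05), BY reads by 0.54 ± 0.10 (adjusted p = 0.00119), and 21 of 27 SNVs had less BY. The ratio changed by -0.50 ± 0.11 (SE; adjusted p = 0.0161), and the call was lost without the 6 min library of culture 3 or the 0 min library of culture 1 (adjusted p 0.0765 to 0.188), and whichever culture was left out (adjusted p 0.0655 to 0.152). RSF2 is not in the list of regulators, since its feature holds more than 1 gene.

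The remaining 4 features hold genes of unknown function, a phosphatase with a histone, and a polymerase with a kinase. YBR085C-A (chrII:418907-419164, minus strand), of unknown function, rose with both alleles, by 2.12 ± 0.15 for BY reads (adjusted p = 2.48e-07) and 1.17 ± 0.16 for RM reads (adjusted p = 0.000116). Its BY share was 60.8, 59.0 and 62.8% at 6 min and 53.8, 37.8 and 44.7% at 0 min. The 6 min libraries lay close together and the 0 min libraries were spread, with culture 2 lowest. The ratio changed by 0.97 ± 0.18 (SE; adjusted p = 0.000735), all 4 SNVs moved toward BY, and the call was lost without the 0 min library of culture 2 (adjusted p 0.089), and without the whole of culture 2 (adjusted p 0.102).

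YJR056C (chrX:541792-542502, minus strand), also of unknown function, had a BY share of 75.6% ± 13.8 at 6 min and 53.0% ± 5.87 at 0 min (SD, n = 3 each). BY reads numbered 36, 20 and 32 at 6 min, against 27, 31 and 40 at 0 min, and RM reads 4, 12 and 11, against 19, 35 and 35. The shares did not overlap, but those of 6 min were spread widely on few RM reads. The RM level fell, with a log2 change of -1.58 ± 0.36 (adjusted p = 0.00516), the BY level changed by -0.06 ± 0.21 (adjusted p = 0.897), and the ratio changed by 1.55 ± 0.39 (SE; adjusted p = 0.034). With the culture as a block the adjusted p was 0.0784, and the call was lost without the 6 min library of culture 1 or 3 or the 0 min library of culture 2 (adjusted p 0.154 to 0.445), and whichever culture was left out (adjusted p 0.071 to 0.313). The change was 1.03 without the 6 min library of culture 1.

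SIW14, a phosphatase of inositol pyrophosphates, and HHT2, a gene for histone H3, form 1 feature (chrXIV:574506-576050, opposite strands). Its BY share was 61.4, 57.9 and 58.6% at 6 min and 54.8, 53.8 and 55.1% at 0 min, without overlap. RM reads fell, with a log2 change of -0.49 ± 0.11 (adjusted p = 0.00372), and BY reads changed by -0.22 ± 0.10 (adjusted p = 0.106). The ratio changed by 0.28 ± 0.07 (SE; adjusted p = 0.0312, and 0.0629 with the culture as a block), and the call was lost without the 6 min library of culture 1 or 3 or the 0 min library of culture 2 (adjusted p 0.105 to 0.334), and whichever culture was left out (adjusted p 0.0502 to 0.332). With all SNVs it was 0.16 (adjusted p = 0.334) and not called.

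POL3, the catalytic subunit of DNA polymerase delta, and DUN1, a checkpoint kinase, form 1 feature (chrIV:276872-281848, opposite strands) that was almost free of BY reads. BY reads numbered 15, 15 and 35 at 6 min, against 8, 10 and 15 at 0 min, and made up 4.85, 6.15 and 8.88% against 3.52, 2.82 and 3.19% of allelic reads. At 0 min 14 of its 20 SNVs with enough reads had under 2% BY, and 7 of 20 moved toward BY. The neighbouring feature GET3 had 0.322% BY over these 6 libraries and NSE4 0.50%. Between and beside them were QRI1 at 30.7%, RPN6 at 21.0%, QRI7 at 17.5% and BUG1/SNU23 at 14.5%. BY reads are thus scarce in some features of this stretch, and the part of that in the change was not tested. The ratio changed by 1.18 ± 0.30 (SE; adjusted p = 0.0445, and 0.0685 with the culture as a block), and the call was lost without the 6 min library of culture 2 or 3 or the 0 min library of culture 2 or 3 (adjusted p 0.0987 to 0.635), and without the whole of culture 2 or 3 (adjusted p 0.275 to 0.734). With all SNVs of the library tables the change was 0.16 (adjusted p = 0.899) and not called.

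**Figure D3:**
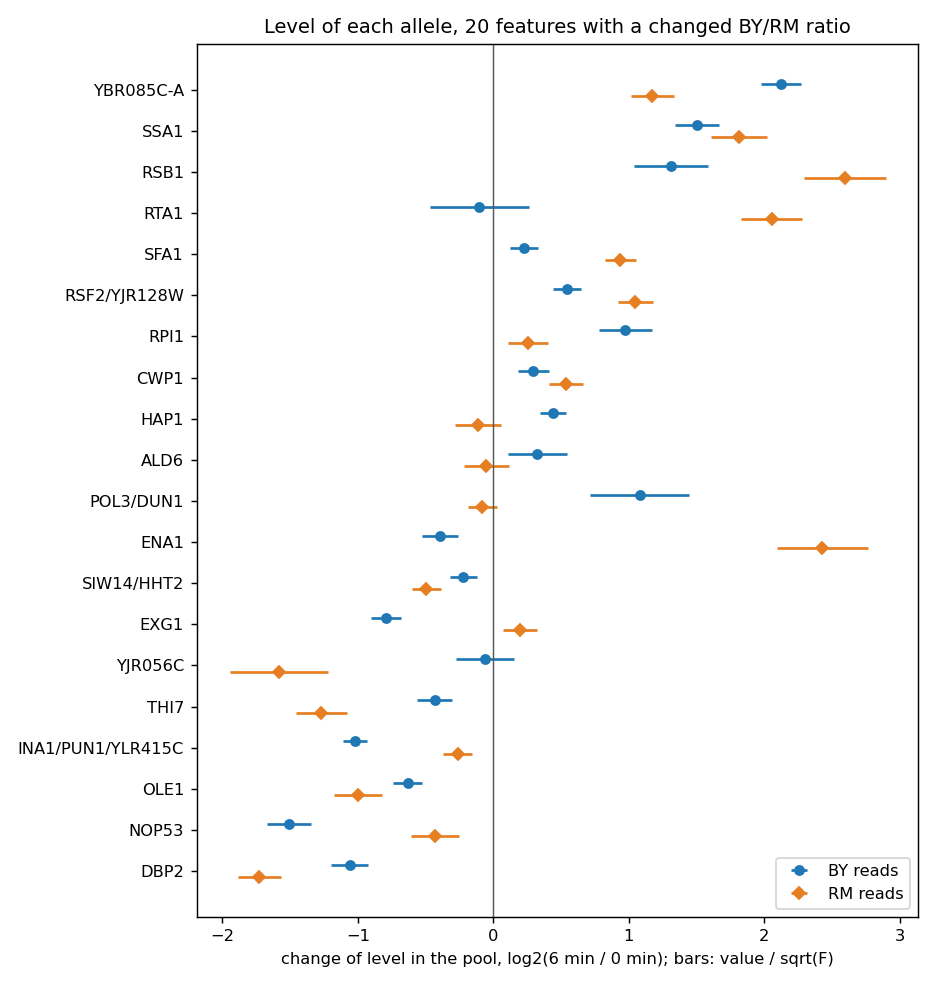
Change of the level of BY reads (circles) and RM reads (diamonds) in the pool, log2(6 min / 0 min), for the 20 features called, ordered by the change of the pool share of both alleles; bars are standard errors. In ENA1 the alleles moved in opposite directions, and in RTA1 the RM reads alone moved far from 0.

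The pool share was called for 608 features without culture 2. Among the 20 its call was lost for EXG1 without culture 2 or 3 (adjusted p 0.0774 to 0.149), for CWP1 without culture 2 or 3 (adjusted p 0.0862 to 0.144), for RSB1 without culture 2 (adjusted p 0.055), for RPI1 without culture 2 or 3 (adjusted p 0.0549 to 0.107), for SIW14/HHT2 without culture 1 or 2 (adjusted p 0.0819 to 0.0987) and for YJR056C without culture 1 or 2 (adjusted p 0.0904 to 0.106).

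The other lists had 0 to 2 calls each, a count to be read beside the 0.666% of all features that were called and the small size of the lists. In the edgeR test 0 of 56 cytosolic ribosomal protein genes, 0 of 34 mitochondrial ones, 0 of 31 genes of mRNA decay, 0 of 43 of amino acid synthesis, 0 of 21 of nucleotide synthesis, 0 of 28 cyclins and cell cycle regulators and 0 of 14 redox enzymes were called. In the same order, the unadjusted p of that test was under 0.05 for 1, 2, 1, 3, 3, 0 and 4 of them, beside 8.12% of all features. DESeq2 called 3 features and limma 0 among all those tested, so the lack of calls by them in these lists carries no weight. In glycolysis and fermentation 1 of 12 genes was called, ALD6, and in sterol and lipid synthesis 1 of 31, OLE1. Of 23 regulators and other genes known to be polymorphic between these parents, HAP1 was higher and the pump gene ENA1 lower. Median ratio changes of these lists lay between -0.09 and 0.07.

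Several other named genes did not pass the test. RPO21, the gene with the temperature-sensitive mutation, shares its feature with BPL1, where BY reads were 93.0% ± 0.741 at 6 min and 93.9% ± 0.287 at 0 min (SD, n = 3 each) and the change was -0.21 ± 0.12 (SE; adjusted p = 0.636). At 0 min the BY share of the 25 SNVs with enough reads in that feature ran from 51.7 to 100%, so the summed share joins sites that disagree. IRA2, an inhibitor of Ras, changed by -0.25 ± 0.11 (SE; adjusted p = 0.553), MKT1, a regulator of mRNA translation, by 0.08 ± 0.16 (SE; adjusted p = 0.955) and AMN1, which acts in daughter cell separation, by 0.20 ± 0.20 (SE; adjusted p = 0.868). Large changes were mostly in shallow features: 46 features changed by more than 1 on the log2 scale, 6 of them were called, and the 46 had a median of 38.2 reads per library. The median standard error over all features was 0.21, close to the size of the change in CWP1.

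The later course of the ratio was followed as 42 min minus 12 min in the same cultures. The step from 6 to 12 min is in neither the early nor the later change and was not tested. The later comparison uses none of the 6 early libraries, and 35 of 2999 features changed (1.17%), 15 with more BY (0.50%) and 20 with less (0.667%). Among them were 5 of the 20: EXG1, SSA1, RSF2/YJR128W, OLE1 and YJR056C. The difference between the early and the later change was tested by itself and was called for 18 features (0.600%), 6 of them positive (0.200%) and 12 negative (0.400%), of which 6 in all were among the 20: SFA1, ENA1, RSB1, YBR085C-A, RSF2/YJR128W and OLE1. This difference contains the early change, from the same libraries, by which the 20 were chosen. Calls of the difference among the 20 are therefore no separate support for their early change. DESeq2 called 14 later changes and 7 differences. Without culture 1 or 2, 12 or 15 later changes were called, and without culture 2, 7 differences. At 18 min the library of culture 3 held only 74320 allelic reads, so its shares are the least certain of the course.

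SFA1, ENA1, RSB1 and YBR085C-A moved early, and their later change was not called. Mean BY shares of SFA1 over the 6 times, from 0 to 42 min, were 29.5, 20.4, 15.6, 14.0, 13.4 and 15.7%. The later change of SFA1 was 0.03 ± 0.08 (SE; adjusted p = 0.946), and the early change minus the later one was -0.76 ± 0.12 (adjusted p = 6.68e-07). ENA1 went through 95.5, 76.0, 76.4, 64.1, 70.4 and 70.7% at the same times, with an early minus later difference of -2.37 ± 0.44 (adjusted p = 0.000116). RSB1 had 83.9, 69.6, 67.4, 73.5, 76.7 and 76.1% and a difference of -1.85 ± 0.34 (adjusted p = 0.000133), lost without culture 2 (adjusted p 0.0776). For YBR085C-A the means were 45.4, 60.9, 61.8, 63.8, 60.1 and 58.6% and the difference 1.17 ± 0.21 (adjusted p = 7.79e-05), lost without culture 2 (adjusted p 0.0979).

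RSF2/YJR128W and OLE1 turned round. The BY share of RSF2/YJR128W was 74.4, 67.1, 68.1, 67.1, 71.2 and 79.0% at the 6 times, and its ratio rose later by 0.86 ± 0.15 (SE; adjusted p = 3.27e-06), for a difference of -1.36 ± 0.19 (adjusted p = 2.8e-08). OLE1 had 69.3, 74.3, 82.1, 70.8, 70.7 and 64.9%, with a later change of -1.25 ± 0.29 (SE; adjusted p = 0.0027) and a difference of 1.63 ± 0.31 (adjusted p = 0.000139). Its later change was not called without culture 1, 2 or 3 (adjusted p 0.0565 to 0.154). In OLE1 the share thus peaked at 12 min, and the libraries of 18 and 24 min were widely spread.

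EXG1 and YJR056C went on in their early direction. EXG1 had 65.7, 49.1, 41.8, 43.5, 40.8 and 33.7% BY at the 6 times and a later change of -0.51 ± 0.14 (SE; adjusted p = 0.0302), lost without culture 1, 2 or 3 (adjusted p 0.171 to 0.459). YJR056C had 53.0, 75.6, 72.4, 84.1, 80.0 and 92.9% and a later change of 2.25 ± 0.55 (SE; adjusted p = 0.00652), lost without culture 1 or 2 (adjusted p 0.0779 to 0.431). SSA1 had 61.9, 56.3, 61.1, 63.2, 64.3 and 56.2% BY: its share was back near the 0 min level from 12 to 24 min and low again at 42 min, for a later change of -0.29 ± 0.05 (SE; adjusted p = 2.05e-05), lost without culture 1 (adjusted p 0.215). The shares of HAP1 and RPI1 reached 84.4% and 82.6% at 42 min, but their later changes of 0.69 ± 0.20 and 1.01 ± 0.34 (SE) did not pass (adjusted p = 0.068 and 0.153).

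**Figure D4:**
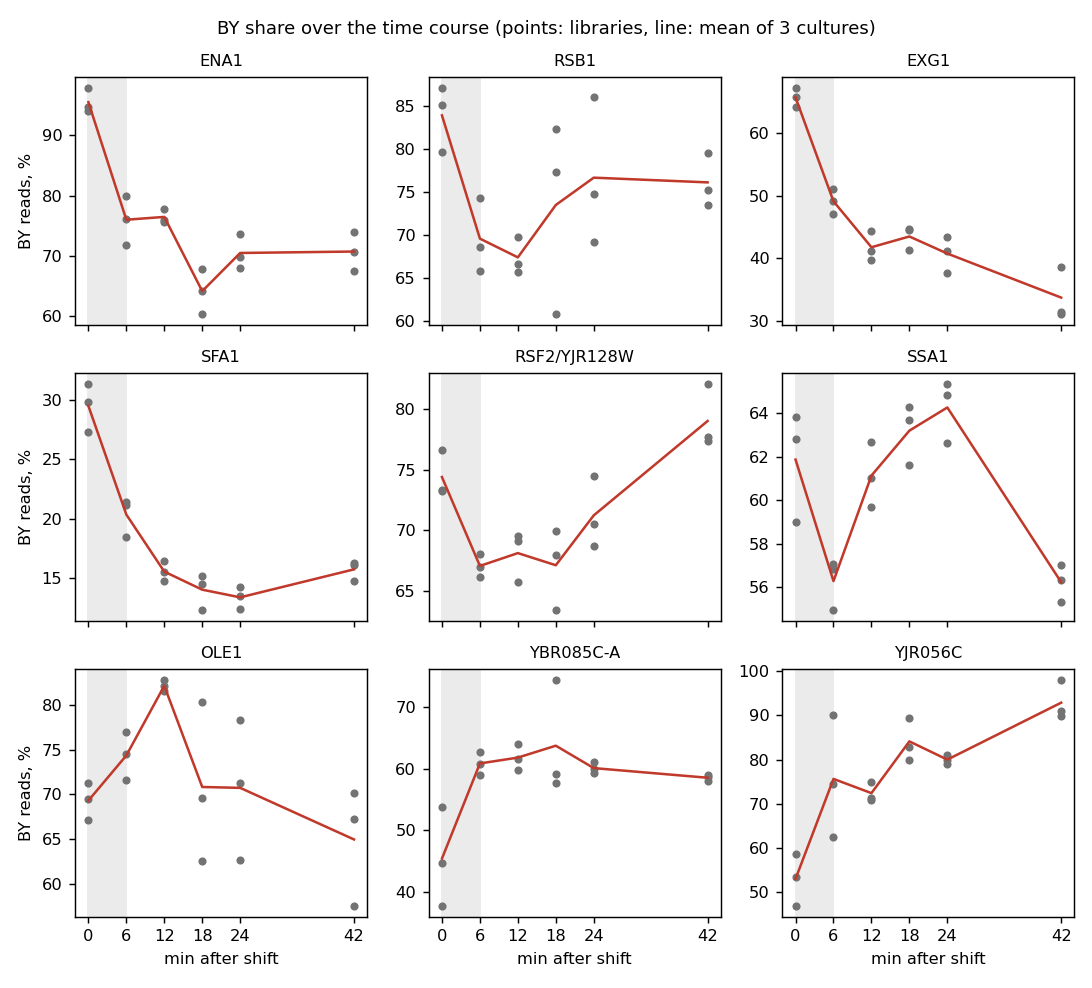
BY reads as % of allelic reads (vertical) against min after the shift (horizontal) for the 9 features of the 20 whose later change or early minus later difference was called; points are libraries, lines join means of 3 cultures, the grey band marks 0 to 6 min, and each panel has its own vertical range. The means of SFA1 and ENA1 are lower at every time after the band than at 0 min and those of YBR085C-A higher, while RSF2/YJR128W ends above its 0 min mean and SSA1 is high at 24 min and low at 42 min.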

How the data were processed

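RNA of 1 hybrid diploid was measured in 18 libraries, of which the 6 of 6 and 0 min carry the main comparison. Per the labels, poly(A) RNA was made into libraries with a kit that does not mark strand, and all were sequenced in the same lane. The deposited values are raw counts of reads per SNV and allele. Reads had been aligned to the genome of each parent and rid of duplicates, per the file headers, and the authors masked poorly mapping sites and joined overlapping genes. The submitters' processing notes name BWA 0.5.9, Picard 1.43 and sacCer3. The series table holds 30497 of the 35952 SNVs of the library tables, with identical counts. The sources used here do not say why the other 5455 SNVs (9.82% of reads) are missing from it; adding them was an alternative. A read over several SNVs can be counted at each, and without molecular identifiers errors cover counting and the spread between libraries only.

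Counts were summed per feature and allele. Positions are 1-based from the R64 annotation, the assembly that sacCer3 stands for. They cover the annotated genes of a feature. Near-identical copies were genes with at least 90% identity over 100 bases by blastn 2.17.0. The ratio was tested in edgeR 4.0.16 (R 4.3.3) with terms for library, allele and allele at 6 min, library totals as sizes, and Benjamini-Hochberg adjustment with a threshold of 0.05. A standard error is the size of the change over the square root of F. For the pool share, reads of both alleles were added up and scaled with TMM factors. The later change was fitted on the 12 to 42 min libraries and the difference on all 18. SNVs followed alone had at least 20 reads at each time. DESeq2 1.42.0, limma 3.58.1 (log2 with 0.5 added), other filters and SNV sets, and fits without a library or culture were alternatives; levels of each allele were added after the data were seen. The scripts were tested on simulated counts. Figures were made with matplotlib 3.10.9.

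Cultures are independent per the labels, and aliquots of 1 culture were taken at each time, so replicate numbers pair the libraries. Deviations of log2 ratios from the time means correlated by 0.041, 0.031 and 0.013 between libraries of the same culture, against -0.060 to 0.027 between different ones. Members, the 16 gene lists and tests were chosen with earlier results of these data known. Named features were the 15 largest called changes per direction with the same sign in 3 cultures, at least 100 reads on average and 20 of each allele, all called list members, and LYS2, RPO21, HAP1, AMN1, IRA2 and MKT1. RTA1, YJR056C and the features of the closing section were named after their values were seen. Lists used single-gene features.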

Additional observations from a re-analysis of the deposited data

Results flagged for a closer look

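The early and the later change of the BY/RM ratio differed in 18 features by the test of the difference itself, in edgeR with Benjamini-Hochberg adjustment. For 6 of them the early change, which is part of the difference, was called too. The values of the difference were -0.76 for SFA1, -2.37 for ENA1, -1.85 for RSB1, -1.36 for RSF2/YJR128W, 1.17 for YBR085C-A and 1.63 for OLE1. In the other 12, named after their values were seen, the early change did not pass the test. Adjusted p of the difference ran from 1.39e-08 in YHB1/MIC26 to 0.0402 in NRG2.

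HSP26/YBR072C-A, with the gene of a small heat shock protein, had a difference of 2.11 ± 0.50 (adjusted p = 0.00877). Its pool share rose by 6.03, the largest rise of all features tested, and the early ratio change of 1.65 ± 0.47 (adjusted p = 0.109) was set against 0 min libraries of 8, 13 and 17 allelic reads. Its later change was -0.45 ± 0.06 (adjusted p = 1.84e-10). The difference was lost without culture 1, 2 or 3 (adjusted p 0.0511 to 0.331).

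YPL088W had a difference of -2.27 ± 0.32, from an early change of -0.22 ± 0.22 and a later one of 2.06 ± 0.21. NRG2, a repressor, had -2.58 ± 0.69, from -1.38 ± 0.52 early and 1.21 ± 0.42 later, lost without culture 1, 2 or 3 (adjusted p 0.117 to 0.414). HSL1, a kinase of the cell cycle, had -0.78 ± 0.15, from 0.03 ± 0.08 and 0.82 ± 0.12. YHB1/MIC26 had 0.88 ± 0.12, from -0.07 ± 0.05 and -0.95 ± 0.09. ETT1 had 0.75 ± 0.18, from 0.06 ± 0.09 and -0.70 ± 0.16, lost without culture 1 or 2 (adjusted p 0.182 to 0.45).

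TPO4, a polyamine transporter, had a difference of 0.83 ± 0.19, with 0.40 ± 0.16 early and -0.42 ± 0.11 later, lost without culture 2 or 3 (adjusted p 0.0524 to 0.588). FPR3 had -0.49 ± 0.11, with 0.06 ± 0.07 and 0.55 ± 0.08, lost without culture 2 or 3 (adjusted p 0.0979 to 0.321). Smaller differences were those of the wall genes CCW12 and TIP1, -0.37 ± 0.08 and -0.41 ± 0.10, of UTH1/SHB17, -0.33 ± 0.08, and of TPS1, the trehalose phosphate synthase gene, -0.31 ± 0.08. That of CCW12 was lost without culture 2 or 3 (adjusted p 0.118 to 0.182), that of TIP1 without culture 1, 2 or 3 (adjusted p 0.0527 to 0.307), that of UTH1/SHB17 without culture 1, 2 or 3 (adjusted p 0.0629 to 0.258) and that of TPS1 without culture 1, 2 or 3 (adjusted p 0.0627 to 0.402) and with all SNVs (adjusted p 0.0741).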

How the results depend on the processing

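Against 20 features called by edgeR, DESeq2 called 3 (0 with more BY, 3 with less), the deepest SNV 2 (0 and 2), limma 0 (0 and 0) and the replicate block 14 (5 with more BY). Leaving out a library or culture gave 7 to 24 features, 0 to 11 with more BY and 7 to 13 with less. TMM sizes, no minimum mean, stricter filters, all SNVs, no extreme SNVs and a fit on all 18 libraries gave 18 to 21, but all SNVs ended the calls of POL3/DUN1 and SIW14/HHT2 and the fit on 18 libraries that of CWP1. With the deepest SNV the change was 0.20 for OLE1, 0.53 for THI7, 0.30 for HAP1, 0.15 for SIW14/HHT2 and -1.83 for RSB1, none called. For the pool share, 608 to 1015 features were called without 1 culture. For the later change DESeq2 called 14 and the fits without a culture 12 to 27; for the difference DESeq2 called 7 and the fits without a culture 7 to 16. The cause of these shifts was not tested. The replicate block ended 6 calls of the ratio, given beside them, and no other call named.

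Over all named results and alternatives, 519 of 717 values kept their direction and side of the threshold, 189 kept their direction but lost the call, and 9 turned direction, all of features that were not called. They were LYS2 with all SNVs (0.22), with the replicate block (0.0174) and among the fits without a library or culture (-1.05 to 0.41), MKT1 with the deepest SNV (-0.28) and among the fits without a library or culture (-0.0326 to 0.19), and AMN1 with the deepest SNV (-0.11). Depth limits the comparison: the median standard error was 0.21 over all features tested, features that changed by more than 1 had a median of 38.2 reads, and 3 cultures give the spread.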
